A study of Mus musculus with 30 samples.

Results

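Interleukins are secreted proteins through which immune cells, skin cells and nerves signal to one another, and most act through a receptor built of 2 or more membrane chains. Most of these receptors signal through Janus kinases (JAKs) and STAT transcription factors, while the IL-1 family signals through MyD88 and NF-κB. Sensory neurons of skin and muscle, several kinds of which carry interleukin receptors, have their cell bodies in the dorsal root ganglia (DRG), and the hind paw holds epidermis, connective tissue, muscle and immune cells. Every gene whose symbol begins with Il and a number was taken as a member, which gave 85 of the 22609 genes counted. Il4i1, an amino acid oxidase, came in by its symbol alone, and Il1f5, Il1f6, Il1f8 and Il1f9 encode the IL-36 receptor antagonist and IL-36 alpha, beta and gamma.

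RNA came from C57BL/6J mice aged 10 to 12 weeks that had received prolactin (PRL), 1 µg, or the vehicle PBS (Veh) by injection into the paw. The 10 groups held 3 libraries each: PRL and Veh, in females and in males, in paw and in DRG, made by rRNA depletion, and a PRL_Sh group of females in each tissue, made with an mRNA kit. The protocol lists single injections and daily ones over 12 days without assigning samples to either, and nothing says what Sh stands for or that replicates are separate animals, so a p-value here reflects only how these libraries scatter, which may be technical. Labels give 18 female and 12 male libraries, the reverse of the series text. Xist, the RNA of the inactive X chromosome, was at 231 to 3787 counts per 1000000 gene reads (CPM) in every library labelled female and at most 6.33 in every library labelled male, so the labels were used.

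Gene reads per library numbered 8.99 to 13.3 M in rRNA-depleted DRG, 6.87 to 13.5 M in rRNA-depleted paw and 21.8 to 26.5 M in PRL_Sh. Male paw Veh replicate 2 was the shallowest library, with 13.6% of its reads in genes. The keratin Krt10 lay at 14181 to 28389 CPM in paw and at 3.56 to 40.7 CPM in DRG, and the neuronal sodium channel Scn10a at 873 to 1275 CPM in DRG and 0.0742 to 1.73 CPM in paw, as the tissue labels state. Levels below are CPM, with libraries in the order of their replicate numbers. Differences are log2 values from edgeR with their standard error, and adjusted p-values come from its quasi-likelihood F test with Benjamini-Hochberg adjustment over all genes tested.

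Many ligands were at or near 0 reads. Il17a, Il9, Il28a, Il28b and the receptor gene Il11ra2 had no read in any of the 30 libraries, which allows a level of up to 0.00757 CPM (3 reads over the 396.2 M gene reads of all libraries, counting error only). This limit covers only reads that aligned to a single place, so it does not bound a gene that has a near copy. Il11ra2 is a near copy of Il11ra1, and alignments that are not unique stand in a summary line of the authors' counts, so the split between both is uncertain. Il3 and Il31 had 1 read each, Il22 had 2, Il2 had 5 and Il4i1 had 10. Another 22 members had 11 to 200 reads over all libraries, among them Il4 (26), Il13 (35), Il21 (24), Il5 (59), Il12b (23), Il27 (37) and Il10 (168). The other 53 had more than 200 reads, and 42 members had a read in every library. The filter on low counts passed 55 members in paw and 42 in DRG, of which 41 passed in both. Il1rapl1 passed in DRG alone, 14 members in paw alone, and 29 in neither tissue. Those 29 comprised nearly the whole set of T helper cytokines (Il2, Il3, Il4, Il5, Il9, Il13, Il17a, Il17f, Il21, Il22), so the account that follows is mainly one of receptor chains and of ligands made in skin.

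Prolactin was accompanied in paw by higher levels of receptor chains for lymphocyte and macrophage cytokines in both sexes. In female paw 12 of the 55 tested members rose (background over all genes tested, 6.54% called higher) and 1 fell (background 1.01%), 13 calls in all (background 7.55%). That count was 8 without female Veh replicate 2 and 7 without female Veh replicate 3. In male paw 20 rose (background 12.3%) and 3 fell (background 10.1%), 23 calls in all (background 22.4%). On the average of the sexes 25 passed (background 24.9%), 21 of them higher (background 14.9%) and 4 lower (background 10%). The members' median difference was 0.14 in females and 0.32 in males, against -0.01 and 0.02 over all genes tested. For each of these 13 female and 23 male calls, the PRL libraries did not overlap the Veh libraries, but neither did they for 21 and 30 of the 55 tested. That share was not computed over all genes, so separate groups are by themselves no result about the members. Both sexes shared 11 of the rises (91.7% of those in females, 55% of those in males): Il2ra, Il2rb, Il2rg, Il4ra, Il7r, Il9r, Il21r, Il10ra, Il10rb, Il12rb1 and Il27ra, each a receptor chain. Il10 passed in females alone, and Il1b, Il1rl1, Il3ra, Il6st, Il13ra2, Il15, Il18r1, Il18rap and Il33 in males alone. Passing in 1 sex does not show a sex difference, and of the members only Il1rl1 passed the test of that difference. On the Veh libraries 8 of the 55 would not have passed the filter, and 6 of these were called, namely Il2rb, Il9r, Il10, Il12rb1, Il13ra2 and Il27ra. They entered the test through the PRL libraries, where they were high, so their rises were favoured by the filter. Without those 8, 47 members remained, of which 7 rose and 1 fell in females and 15 rose and 3 fell in males, with 7 rises shared. In this bulk RNA, more cells of a type and more RNA per cell cannot be told apart.

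**Figure D1:**
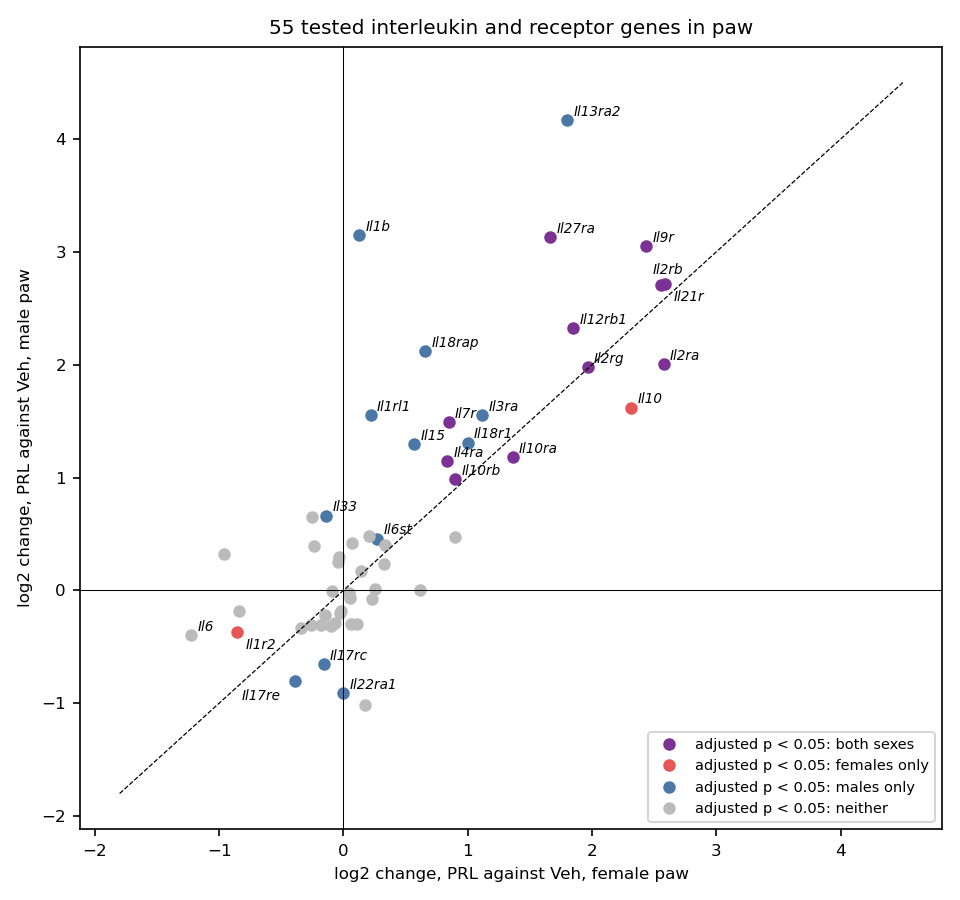
Each point is 1 of the 55 members tested in paw, with its log2 difference between PRL and Veh in females (x axis) and in males (y axis), coloured by the sex in which it passed an adjusted p of 0.05, and the dashed line marks equal differences. The 11 members called in both sexes lie in the upper right, while Il1b and Il1rl1 lie far above the line, with 3.15 and 1.56 in males against 0.13 and 0.22 in females.

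Most chains of the receptors that use the common gamma chain rose in both sexes, while Il15ra passed in neither. Il2rg encodes that chain, which the receptors for IL-2, IL-4, IL-7, IL-9, IL-15 and IL-21 share. In female paw Il2rg was at 4.20, 4.82 and 3.93 CPM with Veh and 22.9, 11.9 and 16.0 CPM with PRL. In male paw it was at 4.83, 4.22 and 4.57 CPM with Veh and 14.2, 21.0 and 18.1 CPM with PRL. Every PRL library was above every Veh library of its sex, and the log2 difference was 1.96 ± 0.21, adjusted p = 0.000433 in females and 1.98 ± 0.21, adjusted p = 0.000156 in males. Of the 11 genes on the list of this receptor group, 7 rose in females (background 6.54%) and 9 in males (background 12.3%), and none fell. The list also holds Crlf2, the TSLP receptor, and the IL-13 receptor genes Il13ra1 and Il13ra2, whose receptors do not use Il2rg. Il13ra2 and Crlf2 are in the male count. Il2rb, Il9r and Il13ra2 were tested through the PRL libraries only.

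Il2ra (CD25), the chain that gives the IL-2 receptor its high affinity, is typical of regulatory and activated T cells. Its level was 1.19, 0.613 and 1.498 CPM in female Veh paw and 7.87, 5.89 and 6.01 CPM with PRL, a log2 difference of 2.58 ± 0.28, adjusted p = 0.00045. Males went from 1.04, 1.17 and 1.36 CPM to 3.66, 5.53 and 4.99 CPM, a log2 difference of 2.004 ± 0.29, adjusted p = 0.000711. The groups did not overlap in either sex. Il2rb, the chain that IL-2 and IL-15 share, stood at 1.46, 0.613 and 0.843 CPM in female Veh and at 6.26, 3.29 and 7.76 CPM in female PRL paw (log2 difference 2.56 ± 0.48, adjusted p = 0.00659). In males Il2rb stood at 0.594, 0.291 and 0.802 CPM with Veh and 2.62, 6.58 and 2.54 CPM with PRL (log2 difference 2.71 ± 0.52, adjusted p = 0.0041). Male PRL replicate 2 was more than 2 times the other PRL libraries of its group for this gene, and the other two still lay above all Veh libraries.

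Il21r, the receptor of the T cell cytokine IL-21, had Veh levels of 1.10, 1.58 and 1.12 CPM in females and 0.965, 1.31 and 1.20 CPM in males. With PRL the libraries held 11.7, 6.08 and 5.24 CPM and 6.84, 7.90 and 7.35 CPM, with log2 differences of 2.59 ± 0.31, adjusted p = 0.000613 and 2.71 ± 0.32, adjusted p = 0.000228. Female PRL replicate 1 was the highest, and all 6 PRL libraries were above all 6 Veh libraries. Il9r, the IL-9 receptor found on mast cells and type 2 lymphocytes, was scarce, at 0.274, 0.0876 and 0.281 CPM in female Veh and 1.16, 0.698 and 1.75 CPM in female PRL paw (log2 difference 2.44 ± 0.55, adjusted p = 0.0191). The female groups were separate, and the call was lost without PRL replicate 1 or any 1 Veh library (adjusted p up to 0.0913). In male paw Il9r had 28 reads over the PRL libraries and 3 over the Veh libraries, a ratio of 8.85 in CPM with a 95% counting interval of 2.73 to 45.5, and the fitted difference had an adjusted p of 0.00832.

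Il4ra carries the signals of IL-4 and IL-13 in macrophages, fibroblasts, keratinocytes and sensory neurons, and had the most reads among the members that rose in both sexes. Female Veh paw held 132, 123 and 78.2 CPM and female PRL paw 165, 198 and 229.8 CPM. Male Veh paw held 77.9, 54.6 and 75.7 CPM and male PRL paw 120.2, 157 and 177 CPM. The groups were separate in each sex, with log2 differences of 0.84 ± 0.20, adjusted p = 0.0256 in females and 1.15 ± 0.20, adjusted p = 0.00245 in males. The female call was lost without PRL replicate 2 or 3 or Veh replicate 2 or 3, with a log2 difference of 0.64 (adjusted p = 0.0874) without Veh replicate 3. Il13ra1, which pairs with Il4ra to bind IL-13, was at 230.3 ± 29.1 CPM (SD, n = 3) in female Veh and 192 ± 12.6 CPM in female PRL paw (log2 difference -0.26 ± 0.10, adjusted p = 0.166), and at 189 ± 5.78 and 151 ± 17.1 CPM in males (-0.30 ± 0.10, adjusted p = 0.053). Averaged over the sexes Il13ra1 fell (log2 difference -0.28 ± 0.07, adjusted p = 0.0143). Il13ra2, a decoy for IL-13, was at 0.148, 0.146 and 0.0802 CPM in male Veh and 2.55, 3.25 and 1.13 CPM in male PRL paw, and rose by 4.17 ± 0.88 (adjusted p = 0.00653). In females it was at 0.821, 0.175 and 1.59 CPM and 2.42, 1.496 and 5.14 CPM (1.80 ± 0.62, adjusted p = 0.118), with overlapping groups.

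**Figure D2:**
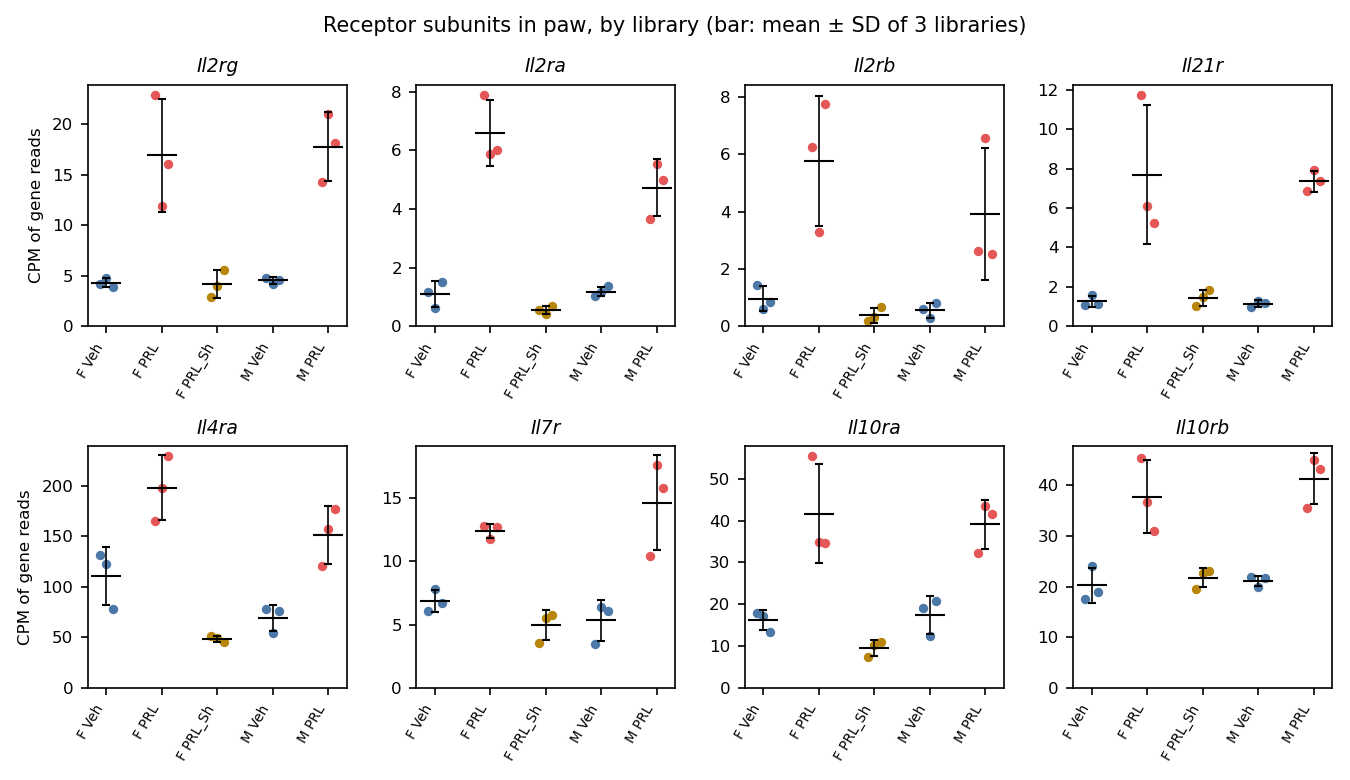
Levels in CPM of 8 receptor chains in the 5 paw groups (F, female, M, male), with 1 point per library and a bar for the mean ± SD of 3 libraries. In both sexes every PRL library lies above every Veh library for all 8 genes, and the PRL_Sh libraries, made with another kit, lie below the PRL libraries.

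Il7r binds IL-7 in lymphocytes and, with Crlf2, TSLP. It stood at 6.12, 7.80 and 6.74 CPM in female Veh and 12.8, 11.8 and 12.7 CPM in female PRL paw, and at 3.49, 6.41 and 6.09 and 10.4, 17.6 and 15.8 CPM in the male groups. The log2 difference was 0.85 ± 0.23, adjusted p = 0.0442 in females and 1.49 ± 0.23, adjusted p = 0.00126 in males. Both pairs of groups were separate, but the female call was lost when any 1 of the 6 female libraries was left out (adjusted p up to 0.14). The prolactin receptor signals through JAK2 and STAT5, and STAT proteins bind the letters TTCNNNGAA, where N is any base and both strands read alike. Among the RefSeq promoters of GRCm38.p6, taken as the 250 bases before each start, 7.02% of all 32851 held this word, against 8 of the 80 promoters of the 65 members listed there (10%). Below are 2 of these 8, those of a member that rose in both sexes (Il7r, chr15:9529877-9530126, minus strand) and of the 1 that fell in females (Il1r2, chr1:40085843-40086092, plus strand), written 5′ to 3′ with the word in capitals, 142 and 111 bases before the start.
Il7r: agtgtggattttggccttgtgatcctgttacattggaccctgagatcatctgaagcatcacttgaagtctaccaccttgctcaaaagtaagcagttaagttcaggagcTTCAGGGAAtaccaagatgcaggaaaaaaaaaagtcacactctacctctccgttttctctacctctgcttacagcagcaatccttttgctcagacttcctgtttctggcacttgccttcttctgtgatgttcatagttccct
Il1r2: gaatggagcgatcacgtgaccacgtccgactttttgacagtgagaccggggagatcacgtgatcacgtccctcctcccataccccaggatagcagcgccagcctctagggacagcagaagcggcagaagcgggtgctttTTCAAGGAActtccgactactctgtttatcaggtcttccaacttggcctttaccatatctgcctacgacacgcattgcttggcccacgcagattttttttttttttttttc
The word thus stood in the promoter of a gene that rose and of one that fell. A match describes the letters and was not tested as a binding site.

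Besides Il13ra1, only Il15ra of this receptor list passed in neither sex. Il15ra, which holds IL-15 for presentation to Il2rb and Il2rg, was at 14.2 ± 0.805 CPM (SD, n = 3) in female Veh and 13.8 ± 1.89 CPM in female PRL paw (log2 difference -0.04 ± 0.13, adjusted p = 0.895). The males had 12.5 ± 1.90 and 14.6 ± 0.591 CPM (0.25 ± 0.13, adjusted p = 0.189). Among the ligands of this group, Il15 rose in male paw from 2.97, 2.33 and 2.005 CPM to 5.41, 5.97 and 6.31 CPM (log2 difference 1.29 ± 0.22, adjusted p = 0.00202), with no overlap. In females Il15 was at 3.92, 2.63 and 2.43 and 4.20, 4.99 and 4.17 CPM (0.57 ± 0.22, adjusted p = 0.16). Il7 stood at 1.46 to 3.24 CPM in female Veh, 2.15 to 2.79 CPM in female PRL, 1.60 to 4.60 CPM in male Veh and 1.59 to 2.92 CPM in male PRL paw. Il2, Il4, Il9, Il13 and Il21 were below the filter, which left Il15 and Il7 as the measured ligands of this group.

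Both chains of the IL-10 receptor rose in both sexes. Il10ra, the ligand-binding chain found mainly on leukocytes, went from 18.0, 17.2 and 13.4 CPM to 55.5, 35.0 and 34.6 CPM in females (log2 difference 1.36 ± 0.21, adjusted p = 0.00213). In males it went from 19.2, 12.4 and 20.7 CPM to 32.3, 43.5 and 41.5 CPM (log2 difference 1.18 ± 0.21, adjusted p = 0.00245). Il10rb, the second chain, which IL-22 and interferon lambda also use, was at 17.6, 24.1 and 19.0 CPM in female Veh and 45.4, 36.8 and 31.0 CPM in female PRL paw (log2 difference 0.90 ± 0.14, adjusted p = 0.00285). The male groups held 21.8, 19.95 and 21.7 and 35.6, 45.0 and 43.2 CPM (log2 difference 0.99 ± 0.14, adjusted p = 0.000846). No PRL library of either gene overlapped a Veh library of its sex.

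The ligand itself was scarce. Il10, a cytokine that restrains macrophages, was at 0.730, 0.350 and 0.281 CPM in female Veh and 1.16, 1.70 and 4.07 CPM in female PRL paw, and rose by 2.31 ± 0.55 (adjusted p = 0.0257). The call was lost without PRL replicate 3 (1.62, adjusted p = 0.0632) or Veh replicate 2 or 3, and Il10 passed the filter only through PRL libraries. Female PRL replicate 3 was the highest and replicate 1 lowest, yet above all Veh libraries. In males Il10 was at 0.594, 0.146 and 0.401 and 1.27, 1.58 and 0.942 CPM (1.62 ± 0.59, adjusted p = 0.0706), also without overlap. Of the epithelial receptors of the same family, Il22ra1 is the chain through which IL-22 acts on keratinocytes. It fell in male paw from 49.0, 24.5 and 32.4 CPM to 16.6, 19.7 and 19.2 CPM (log2 difference -0.91 ± 0.24, adjusted p = 0.0181) and stood at 38.0, 41.8 and 32.0 and 42.0, 25.0 and 44.9 CPM in the female Veh and PRL groups, which overlapped (adjusted p = 0.999). The male call was lost without PRL replicate 3 or Veh replicate 1 (-0.62, adjusted p = 0.0761 without the latter).

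Il27ra, the receptor of IL-27 on T and myeloid cells, went from 0.639, 0.876 and 0.656 CPM to 3.04, 1.496 and 2.43 CPM in females (log2 difference 1.66 ± 0.35, adjusted p = 0.013). That call was lost without PRL replicate 1 or Veh replicate 1 or 3 (adjusted p up to 0.0638). In males it went from 0.445, 0.146 and 0.321 CPM to 2.07, 3.60 and 3.11 CPM (log2 difference 3.13 ± 0.39, adjusted p = 0.000317). Il12rb1, the chain shared by the IL-12 and IL-23 receptors, was at 0.456, 0.263 and 0.0936 and 1.16, 0.499 and 1.36 CPM in females (1.85 ± 0.50, adjusted p = 0.0463) and 0.223, 0.291 and 0.321 and 1.27, 1.67 and 1.22 CPM in males (2.32 ± 0.48, adjusted p = 0.00604). The female call of Il12rb1 was lost without 1 of 5 libraries, PRL replicate 1 or 3, Veh replicate 2 or 3, or male Veh replicate 2 of the same fit (adjusted p up to 0.173). Both genes were near or below 1 CPM with Veh and above it in most PRL libraries. The partners of Il12rb1 did not pass: Il12rb2 differed by -0.26 ± 0.31 in females and 0.65 ± 0.32 in males, and Il23r by 0.90 ± 0.49 and 0.47 ± 0.42. The ligand genes Il12a, Il12b, Il23a and Il27 were below the filter.

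Il6st (gp130), the signalling chain of the IL-6, IL-11, LIF and oncostatin M receptors, had 436, 367 and 408 CPM in male Veh and 495, 553 and 586 CPM in male PRL paw. The groups were separate and the rise was small (log2 difference 0.46 ± 0.08, adjusted p = 0.00277). Females had 421, 423 and 440.2 CPM and 536, 514 and 505 CPM (0.27 ± 0.08, adjusted p = 0.0727), likewise without overlap. Il6ra, which binds IL-6 itself, was at 118, 119 and 118 and 110.5, 84.99 and 145 CPM in female Veh and PRL paw and at 121, 84.6 and 98.2 and 79.8, 81.9 and 81.3 CPM in male, and passed in neither sex. Il6, a cytokine of acute inflammation, was low: 2.28, 2.89 and 4.03 CPM in female Veh and 0.805, 0.898 and 2.23 CPM in female PRL paw (-1.22 ± 0.62, adjusted p = 0.294). Male libraries held 0.148, 1.17 and 2.33 CPM with Veh and 0.954, 1.05 and 0.659 CPM with PRL (-0.40 ± 0.70, adjusted p = 0.716), and the sign turned to 0.73 without Veh replicate 3. Il3ra, the IL-3 receptor chain that pairs with the beta common chain Csf2rb, rose in males from 4.97, 1.02 and 2.89 CPM to 5.73, 9.57 and 11.9 CPM (log2 difference 1.55 ± 0.39, adjusted p = 0.0156). It was at 3.83, 3.59 and 3.28 and 10.6, 6.98 and 5.63 CPM in females (1.12 ± 0.39, adjusted p = 0.123). The male call was lost without PRL replicate 3 or Veh replicate 3 (adjusted p up to 0.066).

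Among the IL-1 family, the IL-33 receptor Il1rl1 (ST2) stood out between the sexes. ST2 marks mast cells, type 2 innate lymphocytes and a subset of regulatory T cells. In male paw its level was 13.7, 12.4 and 12.2 CPM with Veh and 34.4, 39.2 and 37.1 CPM with PRL, a log2 difference of 1.56 ± 0.11, adjusted p = 3.75e-05. In female paw it was 22.2, 27.1 and 23.0 CPM with Veh and 29.8, 29.9 and 24.5 CPM with PRL, a log2 difference of 0.22 ± 0.11, adjusted p = 0.288. The male groups lay wide apart, while female PRL replicate 3 fell among the female Veh libraries. The female response minus the male response was -1.34 ± 0.16, adjusted p = 0.0347, and Il1rl1 was the only 1 of 14721 genes to pass this test (background 0.00679%). It was also the only member of 55 that differed between female and male Veh paw (log2 difference 0.83 ± 0.11, adjusted p = 0.0163, background 0.109%, of which 0.0408% higher in females), with all female Veh libraries above all male ones. Those tests share the Veh libraries. The difference in response kept its sign in all 18 alternatives, from -1.40 to -1.25, but missed the threshold in 11 of them, with adjusted p up to 0.214. It held without female PRL replicate 1 or 3 and was lost when any 1 of the other 10 paw libraries was left out. The difference between female and male Veh held without female Veh replicate 1 and was lost when any 1 of the other 5 Veh libraries was left out (adjusted p up to 0.115).

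Mouse Il1rl1 is read from a pair of start sites, which in GRCm38.p6 lie 10059 bases apart, and the 50-base reads counted per gene do not say which was used. The bases before each are shown because this gene carried the difference between the sexes, at chr1:40429320-40429569 and chr1:40439379-40439628, plus strand, 5′ to 3′. Capitals mark AGATAA or its reverse complement TTATCT, a word bound by GATA factors, 217 and 103 bases before the start.
Il1rl1 first start: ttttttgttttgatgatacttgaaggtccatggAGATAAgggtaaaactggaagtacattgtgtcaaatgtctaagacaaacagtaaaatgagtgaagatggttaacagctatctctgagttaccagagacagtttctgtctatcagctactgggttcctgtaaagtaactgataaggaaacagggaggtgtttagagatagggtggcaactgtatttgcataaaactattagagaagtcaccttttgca
Il1rl1 second start: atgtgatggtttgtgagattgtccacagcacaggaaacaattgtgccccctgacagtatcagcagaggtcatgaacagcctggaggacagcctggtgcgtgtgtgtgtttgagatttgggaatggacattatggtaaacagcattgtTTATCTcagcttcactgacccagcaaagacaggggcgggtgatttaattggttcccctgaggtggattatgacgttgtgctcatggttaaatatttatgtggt
Each start thus had 1 match. AGATAA on either strand stood in 9.99% of all promoters of this length and in 13 of the 80 promoters of members (16.25%). Gata3, a GATA factor of keratinocytes and type 2 lymphocytes, ran at 87.4 to 109 CPM in female Veh, 91.5 to 139 CPM in female PRL, 56.8 to 99.7 CPM in male Veh and 40.2 to 73.2 CPM in male PRL paw, so it overlapped between treatments in both sexes.

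Values of cell markers stood beside Il1rl1 as follows. The summed level of 10 mast cell genes ran at 87.4 to 153 CPM in male Veh and 83.6 to 111 CPM in male PRL paw, and at 119 to 171 and 135 to 199 CPM in females, with overlap in both sexes. Of the 9 mast cell genes tested, 1 rose in males (background 12.3%) and none in females (background 6.54%), shares too near the background to be a result about this list. Foxp3, the factor of regulatory T cells, was at 0.0742 to 0.241 CPM in male Veh and 0.942 to 2.11 CPM in male PRL. In females it was at 0.175 to 0.187 and 1.40 to 2.06 CPM, so the groups did not overlap in either sex. Every Veh library lay below 0.904 CPM, the level the filter asks of a library. Foxp3 is described by level only, and separate groups are by themselves no result. Gata3, of the same marker list, overlapped between treatments, as given above. The part of these cells in the Il1rl1 result was not tested.

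Il33 encodes the ligand of ST2, an alarm protein held in the nuclei of barrier cells. Male Veh paw held 13.1, 15.4 and 13.9 CPM and male PRL paw 27.8, 17.6 and 19.7 CPM (log2 difference 0.66 ± 0.21, adjusted p = 0.0414). The groups were separate, but replicate 1 with PRL stood well above the other two, and without it the difference was 0.36 (adjusted p = 0.213). Of the 6 male libraries, only PRL replicate 2 could be left out with the call kept. Female paw had 19.6, 22.9 and 17.8 CPM with Veh and 22.8, 16.7 and 15.4 CPM with PRL (-0.14 ± 0.21, adjusted p = 0.769), with overlap. The difference between the sexes was -0.80 ± 0.30, adjusted p = 0.309.

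Il1b, made by activated macrophages and neutrophils, had in male paw 1.63, 4.81 and 4.49 CPM with Veh and 51.8, 15.2 and 23.3 CPM with PRL (log2 difference 3.15 ± 0.53, adjusted p = 0.00193). In female paw it had 8.94, 12.1 and 9.18 CPM with Veh and 16.1, 7.08 and 9.90 CPM with PRL (0.13 ± 0.49, adjusted p = 0.915). The male groups were separate and the female groups overlapped, and without female PRL replicate 1 the female value turned to -0.24. Female Veh libraries were all above male Veh libraries, and the test of the difference between the sexes gave -3.02 ± 0.72, adjusted p = 0.205, so a sex difference was not established. Male PRL replicate 1 was highest for Il1b and also for the neutrophil gene S100a8, at 210.0 CPM against 36.5 and 47.4 CPM in replicates 2 and 3 and 3.93 to 22.1 CPM in male Veh. Without that library Il1b still rose, by 2.40 (adjusted p = 0.00468). Csf3r, another gene of neutrophils, was nearly level over the male PRL libraries, at 25.2 ± 1.16 CPM (SD, n = 3). In male Veh paw it was at 3.28 ± 0.458 CPM. In females, where Il1b had no call, Csf3r was at 7.59 ± 1.38 CPM with Veh and 25.6 ± 12.7 CPM with PRL. The summed level of 11 neutrophil genes was 18.3 to 52.9 CPM in male Veh and 109 to 499 CPM in male PRL, and 36.5 to 53.3 and 55.1 to 130.1 CPM in the female groups. Its part in the Il1b result was not tested.

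**Figure D3:**
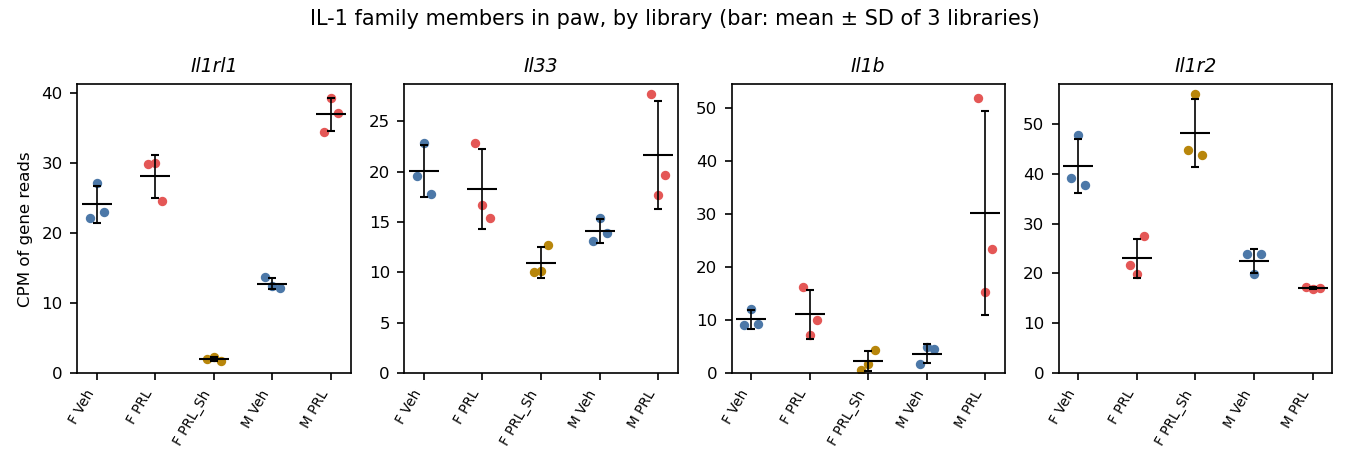
Levels in CPM of 4 genes of the IL-1 family in the 5 paw groups (F, female, M, male), with 1 point per library and a bar for the mean ± SD of 3 libraries. Il1rl1 is separated between treatments in males but not in females, Il1b is spread widely in male PRL paw (15.2 to 51.8 CPM), and Il1r2 is lower with PRL in both sexes.

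Il1r2, a decoy that binds IL-1 without signalling, was the only member that fell in female paw. It went from 39.2, 47.8 and 37.8 CPM to 21.6, 19.95 and 27.5 CPM, a log2 difference of -0.86 ± 0.13, adjusted p = 0.00235. Males had 23.9, 19.8 and 23.9 CPM and 17.3, 16.9 and 17.1 CPM (-0.37 ± 0.14, adjusted p = 0.0705), also without overlap, and on the average of the sexes it fell by 0.61 ± 0.10 (adjusted p = 0.000719). The signalling chain Il1r1 was at 97.9 ± 8.16 and 103 ± 19.5 CPM (SD, n = 3) in female Veh and PRL paw and at 85.6 ± 14.1 and 113 ± 17.1 CPM in male, and its partner Il1rap at 59.6 ± 5.64, 52.8 ± 6.33, 60.01 ± 9.19 and 47.7 ± 6.15 CPM. Neither passed in either sex. Il1rn, the secreted receptor antagonist, had log2 differences of 0.26 ± 0.17 and 0.01 ± 0.17, and Il1a of -0.02 ± 0.19 and -0.18 ± 0.19, in females and males.

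Both chains of the IL-18 receptor rose in male paw. Il18rap went from 1.04, 1.17 and 1.84 CPM to 5.25, 7.20 and 5.09 CPM (log2 difference 2.12 ± 0.34, adjusted p = 0.00146). Il18r1 went from 2.52, 1.31 and 1.76 CPM to 3.26, 5.62 and 5.27 CPM (log2 difference 1.31 ± 0.32, adjusted p = 0.013). In females the same chains stood at 3.38, 3.07 and 3.09 and 5.99, 2.59 and 6.5 CPM (0.66 ± 0.31, adjusted p = 0.261) and at 3.56, 2.80 and 3.46 and 5.99, 4.39 and 9.31 CPM (1.00 ± 0.30, adjusted p = 0.0679), overlapping for Il18rap and separate for Il18r1. Their ligand Il18, a cytokine of keratinocytes and macrophages, was at 39.0 ± 2.95 and 42.2 ± 5.26 CPM (SD, n = 3) in females and at 38.6 ± 4.99 and 31.1 ± 8.30 CPM in males, without passing. The IL-36 group of skin, with Il1f6, Il1f8 and Il1f9, their antagonist Il1f5 and their receptor Il1rl2, had no call in either sex. Its log2 differences lay between -0.15 and 0.62 in females and between -0.31 and 0.48 in males.

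In male paw 3 members fell, Il17rc, Il17re and Il22ra1. Il17rc, which with Il17ra binds IL-17A and IL-17F, went from 64.7, 47.2 and 57.7 CPM to 29.2, 39.9 and 37.1 CPM (log2 difference -0.65 ± 0.15, adjusted p = 0.00923). Il17re, the receptor of the epithelial cytokine IL-17C, went from 18.9, 11.8 and 16.6 CPM to 7.40, 9.83 and 9.61 CPM (log2 difference -0.80 ± 0.20, adjusted p = 0.0137). Neither gene overlapped between groups, and the Il17re call was lost without Veh replicate 1 (-0.68, adjusted p = 0.0568). In female paw the values were -0.16 ± 0.15 and -0.39 ± 0.20, and neither passed. Beside these 2 genes and Il22ra1, the summed level of 9 keratinocyte genes was 45670.4 to 54216 CPM in male Veh and 27887 to 38030.5 CPM in male PRL paw, with 5 of 9 called lower (background 10.1%). In females it was 34336 to 45568 and 31930.3 to 42916 CPM, with no call (background 7.55% in either direction). The part of epidermis in these falls was not tested. Il17ra, Il17rb and Il17rd had no call, and of the ligands of this family only Il17d passed the filter, without a call.

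Markers of leukocytes moved with the receptors in both sexes. Over all genes tested, 6.54% were called higher in females and 12.3% in males, the background for each list here, and 10.1% were called lower in males. All 6 pan-leukocyte genes were called higher in each sex, with a summed level of 181 to 225 CPM in female Veh, 447 to 591 CPM in female PRL, 154 to 216 CPM in male Veh and 407 to 556 CPM in male PRL paw. Ptprc (CD45), which marks all leukocytes, was at 37.5 to 41.5 and 108 to 113 CPM in females and 35.9 to 37.7 and 99.7 to 141 CPM in males. Of the 14 macrophage genes 13 rose in females and 12 in males, where 1 fell, and Emr1 (F4/80) lay at 16.2 to 22.9 and 64.4 to 97.5 CPM and at 20.5 to 37.3 and 93.0 to 108 CPM. Of the 6 T and NK cell genes tested 4 rose in each sex, and Cd3e, a T cell receptor component, lay at 0.263 to 0.548 and 1.70 to 3.85 CPM and at 0.223 to 0.437 and 1.11 to 2.90 CPM. How much of the rise of the interleukin receptors goes with these markers was not tested.

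Signalling genes downstream of the receptors were counted from lists. Of 21 genes of the JAK-STAT pathway none fell. In female paw 3 rose (background 6.54%), too few to be a result about this list, and in male paw 9 rose (background 12.3%). Those in females included the phosphatase Ptpn6 (0.83 ± 0.19) and Jak3 (0.83 ± 0.21), the kinase bound to the common gamma chain. Those in males included Stat2 (1.68 ± 0.19) and Jak2 (0.65 ± 0.09). Of 18 genes downstream of the IL-1 receptor none passed in females. In males 4 fell (background 10.1%) and 3 rose (background 12.3%), counts too small to be a result about this list. The rises were those of the NF-κB subunits Relb (1.42 ± 0.15), Nfkb2 (1.15 ± 0.15) and Nfkb1 (0.48 ± 0.08), while more genes of the list fell than rose. Of 11 genes that process IL-1 beta and IL-18, 5 rose in females (background 6.54%) and 7 in males (background 12.3%), led by Nlrp1b (1.86 ± 0.23 and 1.98 ± 0.23). The beta common chain Csf2rb, partner of Il3ra, rose by 1.12 ± 0.19 in females and 1.66 ± 0.20 in males.

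The PRL_Sh paw libraries, of females as well, lay low for most of these genes. Against PRL, 10 of 55 tested members were called higher (background 29.4%) and 29 lower (background 29%). Of the 12 members that rose with PRL in female paw, 11 had every PRL_Sh library below every PRL library, and for 8 the PRL_Sh mean was below the Veh mean. Those 12 had been picked for high values in the same PRL libraries, which favours this outcome. The PRL_Sh and PRL libraries were also separate for 41 of the 55 tested, and that share was not computed over all genes. Il1rl1 was at 1.98, 2.29 and 1.67 CPM in PRL_Sh, Il4ra at 51.1, 49.2 and 45.4 CPM and Il2ra at 0.560, 0.413 and 0.678 CPM. Against PRL, the log2 differences were -3.84 ± 0.17, adjusted p = 3.61e-05 for Il1rl1, -2.04 ± 0.15, adjusted p = 0.000103 for Il4ra and -3.57 ± 0.28, adjusted p = 0.000121 for Il2ra. Il1r2 (1.05 ± 0.16, adjusted p = 0.00115) and Il1f8 (1.02 ± 0.15, adjusted p = 0.00105) were higher. Ptprc was at 9.73 to 18.1 CPM in PRL_Sh paw. These libraries also differ in kit, so library preparation and group cannot be told apart.

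In DRG few genes of any kind passed. None of the 42 tested passed in females (background 0.653%) or in males (background 0.517%), by edgeR, while an unadjusted p fell under 0.05 for 5 and 4 (12% and 14.9% of all genes tested), with 1 call by DESeq2 in each sex. At these backgrounds the absence of a call is not a result about the members. The average of the sexes had 1 call, the fall of Il6ra (background 3.6%, with 2.14% called higher and 1.47% lower). Il6ra was at 27.8, 26.2 and 24.7 CPM in female Veh and 16.3, 17.0 and 15.6 CPM in female PRL DRG, and at 16.3, 24.8 and 22.1 and 16.5, 12.3 and 14.8 CPM in males. The female groups were separate and the male groups overlapped through Veh replicate 1. The log2 difference was -0.66 ± 0.14 in females (adjusted p = 0.055), -0.53 ± 0.14 in males (adjusted p = 0.117) and -0.60 ± 0.10 on average (adjusted p = 0.00594). Il6ra was the member that DESeq2 called in each sex. The average difference was -0.54 (adjusted p = 0.051) with a covariate for muscle RNA, whose 17 genes summed to 145 to 529 CPM in female Veh and 267 to 7843 CPM in female PRL DRG, and to 123 to 2480.3 and 1083 to 4382 CPM in males.

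Its signalling partner Il6st overlapped between treatments in DRG, at 749.6, 683 and 703 and 694, 687 and 733 CPM in females and 700.0, 653 and 716 and 680.5, 702 and 689 CPM in males. Il1b was at 0.485, 0.164 and 0.391 and 1.03, 1.16 and 1.18 CPM in female Veh and PRL DRG and at 0.300, 0.445 and 0.622 and 2.67, 0.307 and 0.862 CPM in males (average log2 difference 1.59 ± 0.47, adjusted p = 0.0835). The female groups were separate and the male groups overlapped. Beside this, 10 of 10 tested neutrophil genes had an unadjusted p under 0.05 on the average of the sexes in DRG (21.5% of all genes tested). None of them passed, and their part in the Il1b values was not tested. Il16, a chemoattractant cut from a larger precursor, was at 164, 161 and 143 CPM in female Veh and 125, 143 and 124 CPM in female PRL DRG (-0.23 ± 0.08, adjusted p = 0.265), which met at 143 CPM. Il18bp, which neutralises IL-18, differed by -0.73 ± 0.25 in females (adjusted p = 0.264), where Veh replicate 1 held 11.6 CPM against 5.90 and 6.16 CPM in the others. Il18r1 differed by 1.39 ± 0.47 in males (adjusted p = 0.212). No member passed for a different response of the sexes or for female against male Veh DRG, where 3 and 6 were under 0.05 before adjustment (3.65% and 6.83% of all genes) and DESeq2 called none (backgrounds 0% and 0.0544%, the latter 0.0204% higher and 0.034% lower in females). The smallest p there belonged to Il18r1 (-1.88 ± 0.66, adjusted p = 0.993), with Il18bp and Il16 next, and to Il10ra (0.60 ± 0.20, adjusted p = 0.704), with Il3ra and Il16 next.

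**Figure D4:**
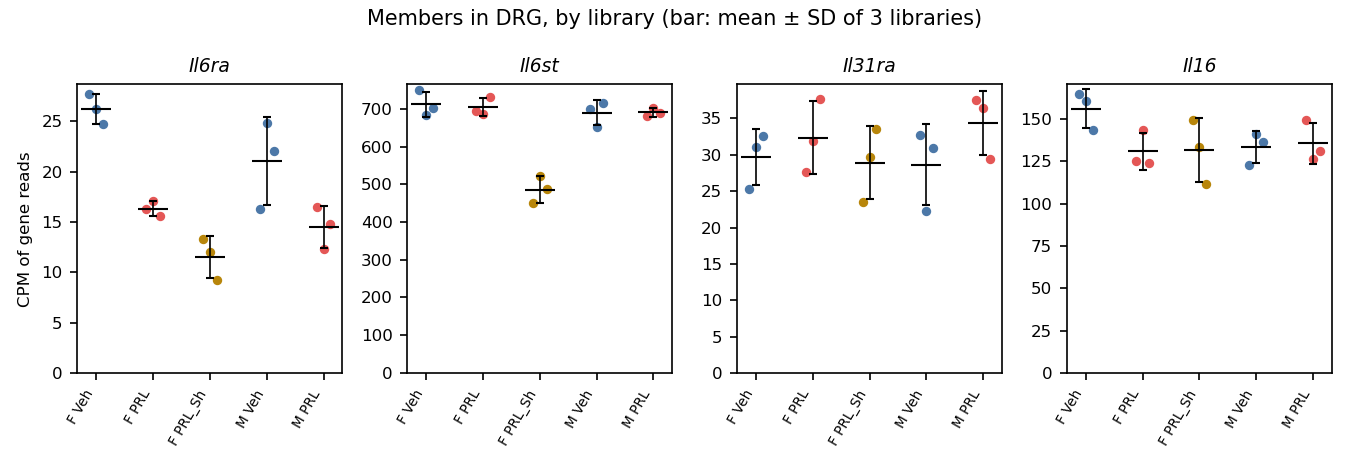
Levels in CPM of 4 members in the 5 DRG groups (F, female, M, male), with 1 point per library and a bar for the mean ± SD of 3 libraries. Il6ra is lower with PRL, with separate groups in females (24.7 to 27.8 against 15.6 to 17.0 CPM), while Il6st, Il31ra and Il16 overlap or touch between Veh and PRL.

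The paw response minus the DRG response, averaged over the sexes, was tested in all 24 rRNA-depleted libraries. Of 56 tested members 14 responded more in paw (background 9.8%) and 2 less (background 5.13%), 16 in all (background 14.9%). Il10rb had the smallest p (0.96 ± 0.11, adjusted p = 7.7e-06): in DRG it stood at 64.5 ± 1.53 and 61.2 ± 1.70 CPM (SD, n = 3) in females and at 61.3 ± 2.74 and 64.3 ± 5.31 CPM in males. Il21r (2.40 ± 0.38, adjusted p = 0.000263), Il2rg (1.86 ± 0.31, adjusted p = 0.000401) and Il4ra (1.03 ± 0.17, adjusted p = 0.000415) followed. In DRG Il2rg was at 4.37, 1.72 and 2.05 and 2.27, 2.50 and 3.21 CPM in females and 1.58, 1.89 and 2.07 and 2.67, 1.02 and 2.87 CPM in males, with overlap. Il10ra, Il6st, Il1rl1, Il27ra, Il2ra, Il2rb and Il9r also passed, with values from 0.38 ± 0.07 for Il6st to 3.37 ± 0.85 for Il9r, the latter lost without Male DRG Veh replicate 1 (adjusted p = 0.149). Il12rb1 had 4.08 ± 1.07, adjusted p = 0.0129, but its DRG level was 11.6, 0.492 and 0.293 CPM in female Veh, and without the first of these libraries the value was 2.45 (adjusted p = 0.00337). Il9r and Il12rb1 passed the filter in paw alone, and there only through PRL libraries, so their larger paw responses were favoured by the filter. Il27ra and Il2rb also passed in paw only through PRL libraries, but passed in DRG as well.

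Without prolactin, paw and DRG differed for nearly as many members as genes at large. Of 49 tested in the Veh libraries, 34 were higher in paw (background 43.1%) and 8 in DRG (background 42.7%), and the share called in either direction, 85.7%, was near that of all genes, 85.8%. Per kilobase of exon, which allows levels of genes to be set side by side, the highest members in the 6 Veh paw libraries were Il13ra1 (56.5 ± 7.88 CPM per kb, SD), Il18 (37.6 ± 3.56), Il6st (37.5 ± 2.40), Il1f6 (35.2 ± 6.77) and Il1f5 (34.3 ± 3.46). Il13ra1 was above the other 4, whose ranges overlapped one another. In Veh DRG the order was Il6st (63.1 ± 2.92 CPM per kb), Il16 (18.4 ± 1.98), Il34 (17.5 ± 1.58), Il10rb (16.5 ± 0.700) and Il33 (7.67 ± 2.13). Il16, Il34 and Il10rb had overlapping ranges there. Il16 overlaps exons of Stard5 on the other strand, and the sources used here do not give the strand setting, so its level is uncertain.

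Several members higher in paw had few or no reads in DRG and entered this test through paw. Il1f6 had 2047 reads in Veh paw and none in Veh DRG, at least 670 times higher in CPM, and Il1f10, the gene of IL-38, had 103 and none, at least 33.7 times (both against 3 reads over the 6 DRG libraries). Il1f8 and Il1a had 2 and 1 reads in Veh DRG, with ratios of 806 (95% counting interval 223 to 6661) and 769 (138 to 30417). Il1f5 was at 160.2, 166 and 144 CPM in female and 174, 132 and 148 CPM in male Veh paw, against 0, 0.164 and 0.0978 and 0.150, 0.223 and 0.415 CPM in DRG (log2 difference 9.90 ± 0.15, adjusted p = 2.49e-14). Among receptors, Il13ra1 (3.86 ± 0.08, adjusted p = 1.48e-13), Il20rb (5.60 ± 0.17, adjusted p = 2.6e-12), which serves IL-19, IL-20 and IL-24, Il1rl2 (4.98 ± 0.16, adjusted p = 4.15e-12), Il28ra of interferon lambda (3.67 ± 0.12, adjusted p = 5.88e-12), Il17rc (3.17 ± 0.11, adjusted p = 1.52e-11) and Il22ra1 (7.72 ± 0.29, adjusted p = 2.79e-11) were higher in paw. So were the antagonists and ligands Il1rn (6.29 ± 0.19, adjusted p = 2.84e-12), Il1f9 (5.59 ± 0.20, adjusted p = 1.35e-11) and Il18 (3.53 ± 0.13, adjusted p = 2.26e-11), and the decoy Il1r2 (5.71 ± 0.22, adjusted p = 2.88e-11).

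**Figure D5:**
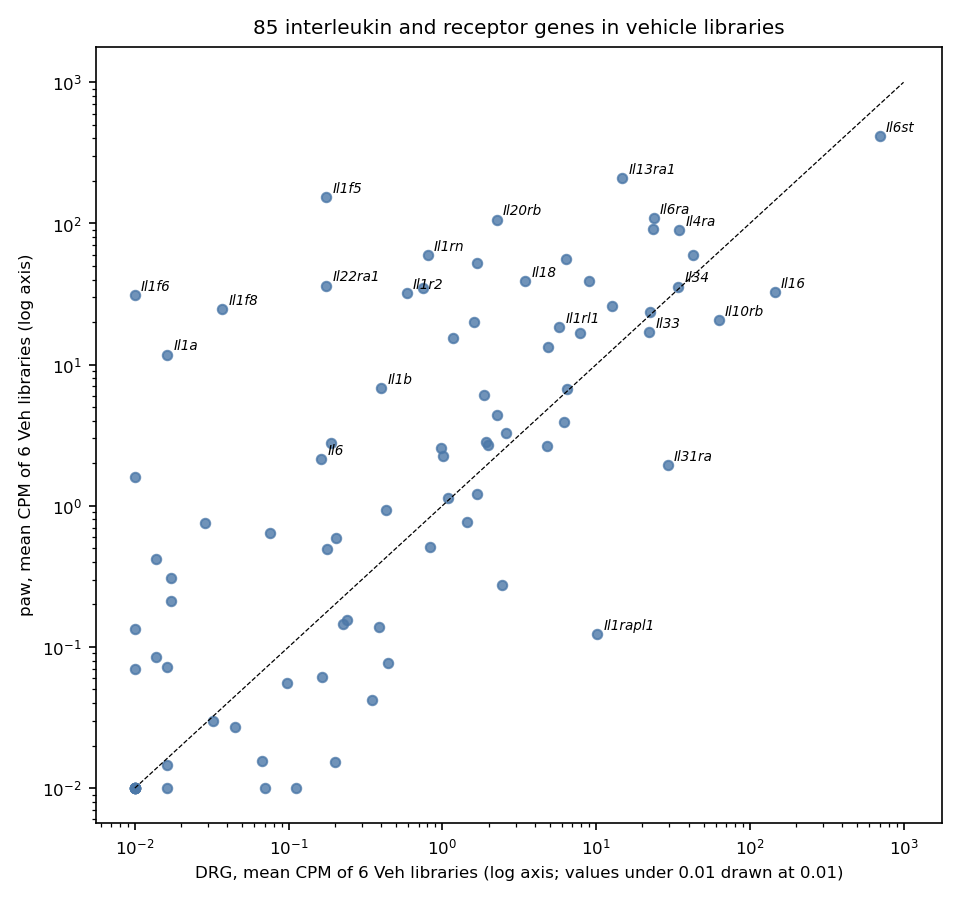
Mean CPM of the 85 members over 6 Veh libraries in DRG (x axis) and in paw (y axis), both log axes, with means under 0.01 CPM drawn at 0.01 and the dashed line marking equal levels. The IL-36 genes Il1f5, Il1f6 and Il1f8 lie far above the line, and Il31ra and Il1rapl1 lie far below it.

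Higher in DRG were Il16, Il10rb, Il6st, Il17rb, Il7, Il33, Il31ra and Il1rapl1. Il31ra, the chain through which IL-31 excites itch neurons, was at 25.3, 31.1 and 32.7 CPM in female and 32.8, 22.3 and 30.9 CPM in male Veh DRG, against 1.92 to 4.31 and 0.520 to 1.60 CPM in paw (log2 paw minus DRG -4.11 ± 0.23, adjusted p = 2e-09). With PRL it was at 27.6, 31.9 and 37.6 and 37.5, 36.4 and 29.4 CPM in female and male DRG and had no call. Il1rapl1, an adhesion protein of synapses, was at 10.4, 7.30 and 10.1 and 11.9, 11.3 and 9.96 CPM in Veh DRG and at most 0.223 CPM in Veh paw (-6.08 ± 0.24, adjusted p = 4.85e-11). In PRL_Sh DRG it was at 0.245, 0.546 and 0.490 CPM, the smallest p of the 21 members called among 41 between PRL_Sh and PRL in DRG (-4.72 ± 0.30, adjusted p = 7.42e-06, background 61.6%). As in paw, the PRL_Sh libraries differ in kit, so library preparation and group cannot be told apart. Between tissues in PRL_Sh, 38 of 54 members were called (background 80.2%), and Il1f5 (10.62 ± 0.22, adjusted p = 2.71e-08), Il1f6 (9.92 ± 0.25, adjusted p = 4.22e-08) and Il1r2 (6.57 ± 0.18, adjusted p = 5.61e-08) led these, all higher in paw.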

How the data were processed

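The authors deposited raw counts, 22609 genes and 5 summary lines per library (43.3% to 86.4% of the reads, set apart). The submitters' processing notes name bcl2fastq, TopHat2, HTSeq and mm9. The sources used here give no versions, counting mode or strand, and 20 members overlap an exon on the other strand. Counts were fitted with edgeR 4.0.16 (R 4.3.3): filterByExpr defaults, TMM, quasi-likelihood F test, Benjamini-Hochberg adjustment over all genes, threshold 0.05. The 12 rRNA-depleted libraries of a tissue were fitted together. PRL_Sh was compared in fits of 6 libraries, Veh tissues in 12 and tissue responses in 24. CPM values are not TMM-scaled. Lengths are merged exons of GENCODE M21, and promoters are RefSeq's (GRCm38.p6). In the RefSeq gene table (GRCm38.p6) 82 members stood under the symbol used and 3 (Il28a, Il28b, Il28ra) under a later one. Alternatives were RLE scaling, DESeq2 1.42.0, no filter, 1 CPM in 3 libraries, a replicate block, only the groups compared, a muscle covariate and leaving out each library. Code was tested on simulated data. Same-numbered libraries did not deviate together. Values were described for the members the rule names, up to 12 per comparison by p (all called in paw, 3 where none passed), the 5 highest per kb, and their partners. Members and lists were chosen with earlier results of these data known. One gene of the signalling lists is not reported here.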

Additional observations from a re-analysis of the deposited data

Results flagged for a closer look

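The Il1rl1 response differed between the sexes in paw, by -1.34 on the log2 scale (female minus male), from the interaction test. Averaged over the sexes, the response to PRL differed between paw and DRG (paw minus DRG, log2) by 0.96 for Il10rb, 2.40 for Il21r, 1.86 for Il2rg, 1.03 for Il4ra, 1.17 for Il10ra, 0.38 for Il6st, 0.94 for Il1rl1, 2.03 for Il27ra, 1.73 for Il2ra, 2.89 for Il2rb, 3.37 for Il9r and 4.08 for Il12rb1, each from the test of the difference itself. For Il1rl1 this average joins unlike paw responses, 1.56 in males and 0.22 in females. Without Male DRG Veh replicate 1 the Il9r call was lost (2.84, adjusted p = 0.149), and without Female DRG Veh replicate 1 Il12rb1 was at 2.45 (adjusted p = 0.00337). In paw, Il27ra, Il2rb, Il9r and Il12rb1 passed the filter only through PRL libraries, and Il9r and Il12rb1 did not pass it in DRG.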

How the results depend on the processing

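Of 144 named differences 124 passed the threshold, and 109 of these kept the call in every alternative run that gave an adjusted p for the member. The 144 include differences between tissues and between kits, so this share does not describe the PRL calls alone. In female paw the calls of Il4ra, Il7r, Il9r, Il10, Il12rb1 and Il27ra were lost with a library left out. Calls of members in female paw (13) fell to 8 with only the groups compared and ran from 7 to 13 with a library left out, with 8 without Female paw Veh replicate 2 and 7 without replicate 3, and it was 12 without Male paw Veh replicate 2, the shallowest library, an alternative chosen after seeing the data. The Il1rl1 difference between the sexes (1 call) became 2 calls with DESeq2 and 0 with the replicate block (adjusted p = 0.0792), and 0 to 1 with a library left out. Female against male Veh paw (1 call, Il1rl1) gave 3 with DESeq2, 0 with only the groups compared (adjusted p = 0.0655) and 0 to 1 with a library left out. In female DRG (0 calls) DESeq2, no filter and only the groups compared gave 1 each, Il6ra. In male DRG (0) DESeq2 gave 1, and leaving out a library gave 0 to 1, with 1 without Male DRG Veh replicate 1. The average in DRG (1) was 0 with the muscle covariate and 1 to 2 with a library left out, 2 without Male DRG PRL replicate 2. With a library left out, Il1b in female paw ran from -0.24 (without PRL replicate 1) to 0.35 and Il6 in male paw from -1.004 to 0.73 (without Veh replicate 3). The cause of these shifts was not tested. Same-numbered libraries did not pair, with correlations of -0.62 to 0.08 between PRL and Veh in paw, -0.31 to 0.0069 in DRG and -0.34 to 0.47 between paw and DRG of a group. The replicate block gave 10 calls in female paw, losing Il4ra, Il10 and Il12rb1, 23 in male paw and 15 between tissue responses. RLE scaling reversed no named difference and moved the median of all genes by under 0.1. The 29 members under the filter in both tissues could not be tested at this depth.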

Other observations

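Of 30 members below the filter in paw, 9 had no read in the female Veh and PRL libraries and 9 had none in the male ones. With PRL, 12 were higher and 9 lower in females, and 17 were higher and 4 lower in males, in CPM over the 3 libraries of a group. Some of these had equal reads in both groups and differed by depth alone (Il1rapl1, Il24 and Il27 in females). Others had only 1 or 2 reads in all, such as Il4i1 and Il2 in males. The shares over all genes of such low counts were not computed, so these counts are no result about the members. Il24, a cytokine of stressed keratinocytes, had 28 reads over the 3 male PRL libraries, at 1.35, 0.439 and 0.565 CPM, and 1 over the male Veh libraries, a ratio of 26.6 in CPM (95% counting interval 4.39 to 1086). In females it was at 0.0913, 0.175 and 0.0936 CPM with Veh and 0.179, 0.200 and 0 CPM with PRL. Il5ra, the eosinophil receptor chain for IL-5, had 23 reads against 1 in male paw (ratio 21.8, 3.54 to 898.8) and 22 against 2 in female paw (ratio 11.5, 2.84 to 101). Every PRL library of either sex was above every Veh library of its sex for Il5ra. Il13 had 11 reads against 1 in male paw (ratio 10.4, 1.52 to 449), and Il19 had 12 against 1 (ratio 11.4, 1.68 to 487). Il20, a cytokine that acts on keratinocytes, went the other way, with 5 reads with PRL against 22 with Veh in female paw (ratio 0.238, 0.0705 to 0.645) and 10 against 24 in male paw (ratio 0.395, 0.169 to 0.858). Il17c had 2 against 10 in male paw (ratio 0.19, 0.0202 to 0.89) and 1 against 4 in female paw (ratio 0.262, 0.00532 to 2.65). These intervals cover counting error only, and the genes were chosen after their values were seen.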
